A study of Mus musculus with 5 samples.

Results

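The histone genes of the mouse were followed through 5 brain RNA-seq libraries. The set was every protein-coding gene whose GENCODE M21 symbol begins with Hist1h to Hist4h, H2af, H3f3 or H1f, chosen by name and not by level. M21 holds 82 such genes, and 80 of them are among the 47729 genes of the deposited count table; Hist1h2bm and Hist1h2bh are not analysed here. Of the 80, 65 carry a cluster name (Hist1h to Hist4h) and are called clustered below, and 15 are variant genes (H2af, H3f3, H1f). All 5 libraries came from tissue labelled brain of male C57BL/6 mice aged 30 months, with 1 library per mouse and no other age or treatment. The mice are called 7 to 11, after the numbers in their labels. With a single group, the comparisons are between genes within a mouse and between mice. The labels do not say that the libraries were prepared together or apart, so spread between libraries may hold technical as well as animal differences.

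Histones package DNA. H2A, H2B, H3 and H4 form the nucleosome core, and H1 binds the linker DNA between cores. The clustered, replication-dependent genes supply histones in bulk when DNA is copied, and their mRNAs classically end in a conserved stem-loop in place of a poly(A) tail. Variant genes lie singly in the genome, are mostly polyadenylated, are expressed outside S phase, and take over histone supply in cells that no longer divide, such as neurons. The libraries were made with an mRNA preparation kit from total RNA, and how mRNA was selected was not given in the sources used here; libraries selected by poly(A) tail hold little of a tail-less message. In a tissue of many cell types, fewer cells of a type and less RNA per cell cannot be told apart.

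The libraries held 15392006 to 18723390 counts, of which the 80 histone genes took 0.0380% to 0.0533%. A count of 0 allows up to 3 counts, or 0.160 to 0.195 CPM (the count scaled to the library total) in 1 library, for counting error only. Mouse 11 stood apart from the other 4 across the whole table: over 16264 genes its log2 CPM, taken relative to each gene's mean over the mice, followed GC content with a Spearman rho of 0.70, against -0.41 to -0.03 in the other mice. In the tenth of genes with the highest GC content (57.8% or more) its median deviation was 0.60 on the log2 scale, and in the tenth with the lowest (40.8% or less) it was -0.43. Among those low-GC genes mouse 7 was at 0.41, nearly as far in the other direction. The values of the variant genes in mouse 11 are set beside their GC content, and without that mouse, in the account of variation between mice.

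Most clustered genes gave few or no counts and most variant genes were measured. A mean count of at least 10 over the 5 libraries, used here as the limit for calling a gene measured, was reached by 7 of the 65 clustered genes (10.8%) and by 10 of the 15 variant genes (66.7%). Over all 21697 protein-coding genes of the table the share was 65.7%. In every library 32 clustered genes (49.2%) and 4 variant genes (26.7%) had 0 counts, against 18.8% of protein-coding genes. The remaining 26 clustered genes and 1 variant gene had a mean count under 10. Many clustered genes are close copies of one another, which bears on these counts and is described further on.

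Summed over the class, clustered genes had 45.5, 64.4, 45.6, 70.0 and 61.7 CPM in mice 7 to 11, a mean of 57.4 ± 11.3 CPM (SD, n = 5). Variant genes had 335, 370, 340, 349 and 471 CPM, a mean of 373 ± 56.4 CPM (SD, n = 5). Variant genes were the larger class in all 5 mice and the 2 ranges did not overlap. Because histone genes differ in length, levels between genes are compared as RPKM, in which counts are divided by gene length and library total, recomputed with each library's own total. In summed RPKM the clustered genes had 39.0, 55.5, 35.2, 58.8 and 57.3 in mice 7 to 11 and the variant genes 128, 142, 129, 134 and 187. The clustered share of the summed RPKM was 23.4, 28.0, 21.4, 30.5 and 23.5%, a mean of 25.4 ± 3.77% (SD, n = 5). Counted without correction for length, the share was 13.4 ± 2.28% (SD, n = 5).

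The balance differed between the histone types. For H1, clustered genes summed to 6.01 ± 1.46 RPKM and variant genes to 34.1 ± 6.81 RPKM, so that the clustered share was 15 ± 3.06%. For H2A, clustered genes summed to 6.93 ± 1.43 RPKM and variant genes to 69.4 ± 12.6 RPKM, a clustered share of 9.21 ± 2.14%. For H3 the clustered sum was 0.819 ± 0.132 RPKM and the variant sum 40.5 ± 5.94 RPKM, a clustered share of 1.99 ± 0.293%. H2B and H4 have only clustered genes in this set; H2B summed to 32.7 ± 7.81 RPKM and H4 to 2.70 ± 1.47 RPKM (SD, n = 5 throughout). The types that have variant genes therefore drew most of their counted RNA from them, and H4, which has none in this set, had the lowest sum, from genes with a mean count under 10 alone.

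**Figure D1:**
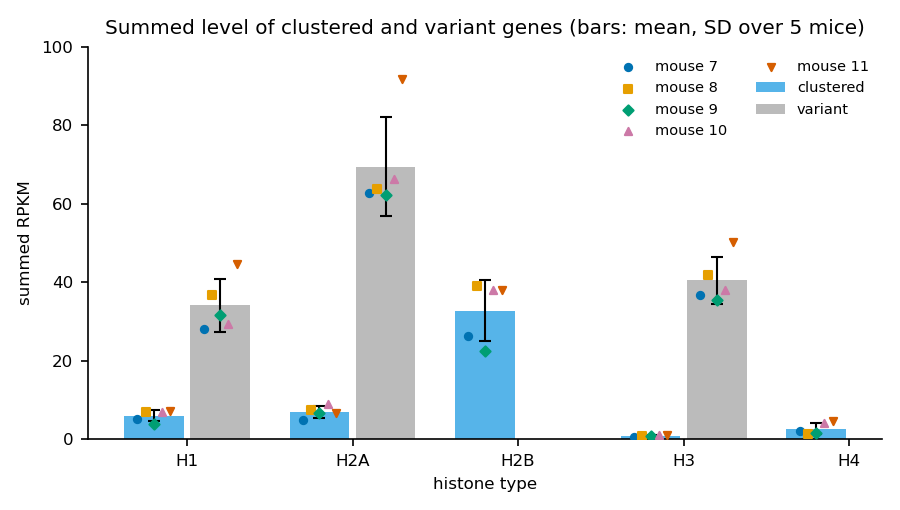
Summed RPKM of clustered genes (blue) and variant genes (grey) for each histone type; bars are means over 5 mice, error bars SD and points the single mice. The grey bars stand above the blue ones for H1, H2A and H3, H2B (32.7 RPKM) and H4 (2.70 RPKM) have clustered genes only, and mouse 11 is the highest point of each grey bar.

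A handful of genes carried each class. The 7 measured clustered genes held 95.2% of the clustered counts. Of the clustered RPKM, Hist1h2bc held 42.4%, Hist3h2ba 15.3%, Hist3h2a 13.0%, Hist1h1c 11.7% and Hist2h2be 6.46%, and Hist2h3c2 and Hist1h2be held 1.43% and 1.41%. Of the variant RPKM, H3f3b held 25.7%, H1f0 21.9%, H2afz 18.0%, H2afv 9.12% and H2afy 7.48%. H2afx, H2afj, H2afy2, H3f3a and H1fx followed with 5.19% down to 1.75%. Shares of counts differ from these where genes are long: H2afy held 19.6% of the variant counts.

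**Figure D2:**
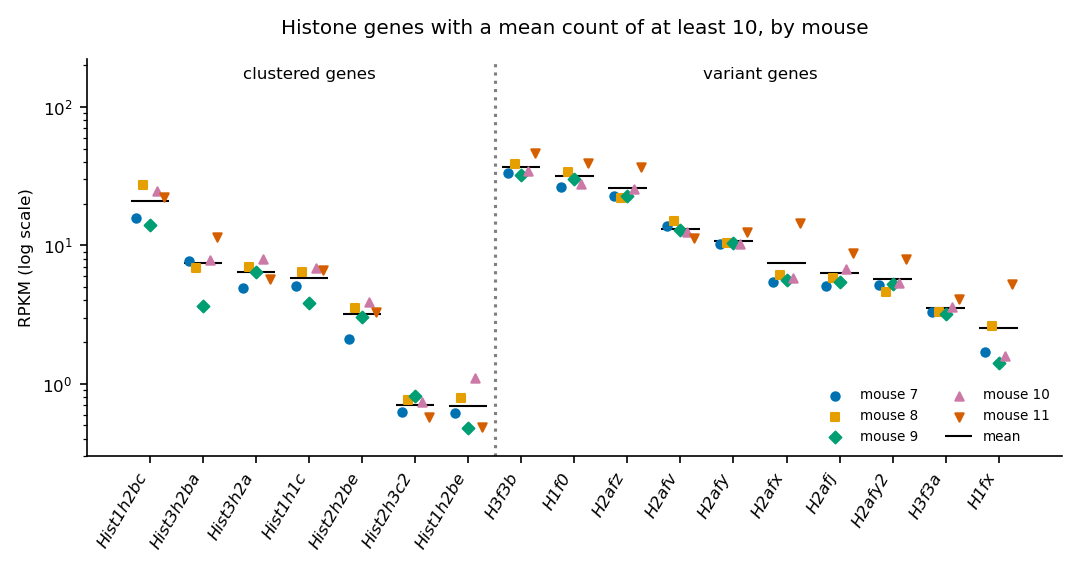
RPKM (log scale) of the 17 measured histone genes (mean count 10 or more), clustered genes left of the dotted line and variant genes right, in falling order of their mean within each class; symbols are the 5 mice and bars the means. H3f3b averaged 37.0 RPKM and Hist1h2be 0.694 RPKM, and mouse 11 (downward triangles) is the highest point for 9 of the 10 variant genes.

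In order of mean RPKM, the measured genes ran H3f3b (37.0), H1f0 (31.6), H2afz (25.9), Hist1h2bc (20.8), H2afv (13.1), H2afy (10.8), Hist3h2ba (7.51), H2afx (7.47), Hist3h2a (6.39), H2afj (6.36), Hist1h1c (5.77), H2afy2 (5.68), H3f3a (3.51), Hist2h2be (3.18), H1fx (2.52), Hist2h3c2 (0.704) and Hist1h2be (0.694). Of the 16 steps between neighbours in this order, 14 had ranges over the mice that overlapped. The ranges did not overlap between H2afy2 and H3f3a or between H1fx and Hist2h3c2. Within each mouse the order was kept in all 5 mice at 6 of the 16 steps. The place of a gene in this order also depends on the length it was divided by, as given below for H2afy and Hist1h2bc.

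Among H3 genes, H3f3b had by far the highest RPKM. H3f3a and H3f3b encode the replacement histone H3.3, which is deposited outside S phase and builds up in neurons with age. H3f3b (ENSMUSG00000016559, chr11:116021912-116027962, GRCm38, minus strand) had 1552, 1769, 1503, 1650 and 2569 counts in mice 7 to 11, or 33.5, 38.6, 32.2, 34.6 and 46.1 RPKM. H3f3a (chr1:180800832-180813943, minus strand) had 181, 178, 176, 201 and 271 counts, or 3.32, 3.30, 3.21, 3.58 and 4.13 RPKM. H3f3b was therefore 10.1, 11.7, 10.1, 9.67 and 11.2 times as high in RPKM in the 5 mice, and the genes' ranges did not overlap. H3f3a shares 160 exon bases with the antisense gene H3f3aos and 638 with Gm17275, both on the opposite strand, and the strand setting of the counting was not given. Of its 50-base words, 27.1% occur in another annotated gene, so some of its reads may have been lost or split. Of the 12 clustered H3 genes, which encode H3.1 and H3.2, 8 had 0 counts in every library and 3 had a mean count under 10. The one measured was Hist2h3c2 (chr3:96238108-96239127, minus strand), with 10, 12, 13, 12 and 11 counts or 0.704 ± 0.0979 RPKM (SD, n = 5). Of its 50-base words, 63.5% are shared with another gene.

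Among H2A genes the variants H2afz, H2afv and H2afy led. H2afz and H2afv encode the 2 forms of H2A.Z, a variant found at promoters. H2afz (chr3:137864487-137866922, plus strand) had 629, 600, 628, 733 and 1221 counts in mice 7 to 11, or 22.8, 21.9, 22.6, 25.7 and 36.7 RPKM. H2afv (chr11:6427229-6444443, minus strand) had 353, 376, 333, 326 and 348 counts, or 13.9, 15, 13.0, 12.4 and 11.4 RPKM. The H2afz to H2afv ratio was 1.64, 1.47, 1.73, 2.07 and 3.23: H2afz was the higher in every mouse, and the ratio was widest in mouse 11, the mouse with the most H2afz and the least H2afv; without that mouse the mean log2 ratio was 0.77, against 0.95 over all 5. Of the words of H2afz, 35.4% occur in another gene.

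H2afy and H2afy2 encode macroH2A1 and macroH2A2, large variants associated with silent chromatin. H2afy (chr13:56073619-56136361, minus strand) had 1089, 1081, 1116, 1121 and 1596 counts in mice 7 to 11, or 10.3, 10.3, 10.5, 10.3 and 12.5 RPKM. Mice 7 to 10 were nearly level and mouse 11 lay above them. H2afy2 (chr10:61738665-61784147, minus strand) had 175, 154, 180, 188 and 325 counts, or 5.17, 4.60, 5.28, 5.39 and 7.98 RPKM. The H2afy to H2afy2 ratio of RPKM was 1.99, 2.24, 1.98, 1.90 and 1.57, with H2afy the higher in every mouse. The size of this ratio depends on length. H2afy was divided by 6809 bases, all its annotated exons joined, while its longest coding transcript has 2046. For H2afy2 both lengths are 2175 bases. In CPM, without length, H2afy averaged 73.3 and H2afy2 12.4. H2afy2 shares 233 exon bases with Aifm2 on the opposite strand, which had a mean count of 149.8.

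H2afx and H2afj were near each other in mice 7 to 10, at levels like those of H2afy2. H2afx encodes H2A.X, which is phosphorylated at DNA breaks, and H2afj encodes H2A.J, reported to accumulate in senescent human cells. H2afx (chr9:44334694-44336077, plus strand) had 117, 130, 122, 128 and 374 counts in mice 7 to 11, or 5.44, 6.10, 5.63, 5.76 and 14.4 RPKM. Mice 7 to 10 lay within a narrow band and mouse 11 far above it. H2afj (chr6:136808244-136810074, plus strand) had 145, 164, 155, 197 and 301 counts, or 5.09, 5.82, 5.40, 6.71 and 8.78 RPKM. The H2afj to H2afx ratio was 0.937, 0.954, 0.960, 1.16 and 0.608, on both sides of 1. H2afb3, a gene of the short H2A variants of the testis, had 1 count in all libraries together, and H2afb1 and H2afb2 had 0.

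One of the 18 clustered H2A genes was measured. Hist3h2a (chr11:58954685-58956830, plus strand) had 164, 229, 217, 274 and 229 counts in mice 7 to 11, or 4.91, 6.93, 6.45, 7.96 and 5.70 RPKM. Mouse 10 was the highest and mouse 7 the lowest. Its annotated exon shares 708 bases with Trim17 on the same strand, which had a mean count of 42.8. Of the other clustered H2A genes, 13 had 0 counts throughout and 4 had a mean count under 10, the highest being Hist1h2ac with 11 counts in all. Hist2h2aa1, the clustered H2A gene paired with it, had 0 counts; all of its 50-base words occur in another gene, so its own level is uncertain and no fold against it is given.

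H2B came from 4 measured genes, all clustered. Hist1h2bc (ENSMUSG00000018102, chr13:23684199-23692908, plus strand) had 180, 310, 163, 290 and 308 counts in mice 7 to 11, or 15.7, 27.4, 14.1, 24.6 and 22.4 RPKM. Mice 7 and 9 were low and the other 3 high. It made up 42.4% of the clustered RPKM. Its level depends on length: the deposited RPKM imply 736 bases, and with the 1156 bases of its annotated exons it would average 13.3 RPKM in place of 20.8. Hist3h2ba (chr11:58948920-58949533, plus strand) had 73, 65, 35, 77 and 133 counts, or 7.65, 6.88, 3.64, 7.82 and 11.6 RPKM. Hist2h2be (chr3:96221119-96223738, plus strand) had 86, 142, 125, 165 and 161 counts, or 2.11, 3.52, 3.05, 3.93 and 3.28 RPKM. Its ranges did not overlap those of Hist1h2bc, of which it reached 0.134, 0.129, 0.215, 0.160 and 0.147 times the RPKM. Hist3h2ba was 3.62, 1.95, 1.19, 1.99 and 3.52 times as high as Hist2h2be.

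Hist1h2be (chr13:23583670-23621124, minus strand) had 42, 53, 33, 77 and 40 counts in mice 7 to 11, or 0.617, 0.787, 0.481, 1.10 and 0.488 RPKM. Hist1h2bc exceeded it 25.5, 34.8, 29.4, 22.4 and 45.8 times in RPKM. Its annotated exons contain 496 bases of the H1 gene Hist1h1e, which had 0, 6, 0, 1 and 5 counts, so reads of the shared bases cannot be assigned. The other 12 clustered H2B genes gave between 0 and 6 counts in all 5 libraries together.

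Among H1 genes, H1f0 encodes H1.0, the linker histone of differentiated, non-dividing cells. H1f0 (chr15:79028450-79030504, plus strand) had 935, 1199, 1082, 1021 and 1691 counts in mice 7 to 11, or 26.3, 34.1, 30.2, 27.8 and 39.5 RPKM. The replication-dependent Hist1h1c, which encodes H1.2 (chr13:23738808-23740367, plus strand), had 123, 153, 94, 173 and 194 counts, or 5.07, 6.37, 3.85, 6.91 and 6.64 RPKM. H1f0 was 5.19, 5.35, 7.85, 4.03 and 5.95 times as high in RPKM as Hist1h1c, with ranges that did not overlap. H1fx, a gene of another replication-independent H1 (chr6:87980421-87981637, minus strand), had 32, 49, 27, 31 and 120 counts, or 1.69, 2.62, 1.42, 1.59 and 5.27 RPKM. H1f0 exceeded it 15.5, 13.0, 21.3, 17.5 and 7.50 times. H1fx shares 213 exon bases with the antisense gene Gm5577, which had a mean count of 36.6. The H1 genes of germ cells, H1fnt and H1foo, had 0 counts in every library; of the 6 markers of male germ cells 2 were also at 0 (Tnp1 and Tnp2) and 1 was measured (Ddx4, 0.988 RPKM), and of the 4 of oocytes 1 was at 0 (Oosp1) and none was measured. Hist1h1e, the gene of H1.4, averaged 0.192 RPKM, so that Hist1h1c was the higher in every mouse.

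None of the 13 H4 genes was measured: 4 had 0 counts throughout and 9 had a mean count under 10. The highest, Hist1h4h, had 5, 1, 0, 18 and 15 counts in mice 7 to 11, and Hist2h4 had 15, 0, 5, 11 and 4. Hist1h4i had 2, 4, 2, 3 and 13 counts. Hist4h4, the only gene with a Hist4 name, lies near H2afj on chromosome 6 and had 0, 0, 7, 1 and 12. Hist1h4h was highest in mouse 10, Hist2h4 in mouse 7, and Hist1h4i and Hist4h4 in mouse 11; at these counts no order between mice is read. The low sum for H4 is a value of counted RNA and not of H4 protein.

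In all, 12 such pairs were compared, using log2 ratios per mouse, after 0.1 was added to each RPKM, and an exact test that flips the signs of the 5 ratios (permutation, both sides). In 11 of the 12 pairs all 5 mice pointed one way. Of the 9 pairs with both genes measured, 8 did so. The exact test then gave p = 0.0625, the smallest that 5 mice allow, or 0.0682 after Benjamini-Hochberg adjustment over the 12 pairs. This exact test therefore cannot place any pair under 0.05. The mean log2 ratio was 3.36 ± 0.12 for H3f3b over H3f3a, 3.76 ± 0.55 for H1f0 over H1fx, 2.45 ± 0.34 for H1f0 over Hist1h1c and 4.73 ± 0.37 for Hist1h2bc over Hist1h2be (SD, n = 5). It was 0.95 ± 0.44 for H2afz over H2afv, 0.93 ± 0.18 for H2afy over H2afy2, 1.15 ± 0.66 for Hist3h2ba over Hist2h2be and -2.66 ± 0.29 for Hist2h2be over Hist1h2bc. The H2afj over H2afx ratio, -0.14 ± 0.34, gave an exact p of 0.50, and without mouse 11 the mean ratio was -0.00065. The remaining pairs, Hist3h2a with Hist2h2aa1, Hist1h1c with Hist1h1e and Hist4h4 with Hist1h4i, have a member near 0, and their ratios depend on the pseudocount. Hist2h2aa1 had 0 counts in every library, so the direction of its pair was fixed and its exact p says nothing of the 2 genes.

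Of the 7 measured clustered genes, 5 share a feature of their annotated 3′ end. The histone stem-loop, the element that the stem-loop binding protein holds and that marks where replication-dependent mRNAs are cut, was found in an annotated M21 transcript of 44 of the 65 clustered genes. It is shown for the 5 measured clustered genes that have it, for the H2A gene that shares a promoter region with Hist2h2be, for 2 H4 genes and for H2afx, with the stem-loop in capitals, DNA letters and GRCm38 coordinates:
Hist1h1c, chr13:23739507-23739536, plus strand: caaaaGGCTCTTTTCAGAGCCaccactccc
Hist3h2a, chr11:58955167-58955196, plus strand: ccaaaGGCTCTTTTCAGAGCCacccacaac
Hist3h2ba, chr11:58949344-58949373, plus strand: ccaaaGGCTCTTTTCAGAGCCaccttccaa
Hist1h2be, chr13:23585522-23585551, minus strand: ccaaaGGCTCTTTTCAGAGCCacccaacag
Hist2h3c2, chr3:96238476-96238505, minus strand: acaaaGGCTCTTTTCAGAGCCaccacagct
Hist2h2ac, chr3:96220409-96220438, minus strand: aaaaaGGCTCTTTTTAGAGCCaccaaatct
Hist1h4h, chr13:23531453-23531482, plus strand: ccaaaGGCCCTTTTCAGGGCCgcccacatt
Hist4h4, chr6:136803989-136804018, minus strand: acaaaGGCCCTTTTCAGGGCCcacaaagca
H2afx, chr9:44335235-44335264, plus strand: acaaaGGCCCTTTTAAGGGCCaccacctcc

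The form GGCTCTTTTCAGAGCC, shared by the 5 measured genes, is the stem-loop of 24 of the 44 genes, and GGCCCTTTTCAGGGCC, that of Hist1h4h and Hist4h4, is the next most frequent with 7. In 22 of the 44 the annotated transcript goes on for at least 100 bases past the stem-loop, and in the other 22 it ends within that distance. Of the 22 that go on, 5 were measured and 6 had 0 counts; together they held 2683 counts. Of the 22 that end near the stem-loop, 0 were measured and 12 had 0 counts; together they held 63 counts, and the highest was Hist1h4h with a mean count of 7.8. The annotated sequence past the stem-loop was 840 bases in Hist1h1c, 1643 in Hist3h2a, 1861 in Hist1h2be, 169 in Hist3h2ba and 377 in Hist2h3c2. Genes with a longer stretch were not always measured: Hist4h4 has 2445 bases past its stem-loop and 20 counts, and Hist1h2ac has 2010 and 11 counts.

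The other 2 measured clustered genes, Hist1h2bc and Hist2h2be, have no stem-loop in their annotated transcript; that of Hist1h2bc has 2 exons and that of Hist2h2be a single exon with 2192 bases of 3′ UTR. The stem-loop also occurs in 1 of the 15 variant genes, H2afx, which in human cells is known to make both a stem-loop and a polyadenylated mRNA, and 822 annotated bases follow it there. A poly(A) signal (AATAAA or ATTAAA in the last 50 annotated bases) was present in 17 clustered genes, of which 5 were measured, with 3306 counts in all. It was absent from 48, of which 2 were measured, with 1384 counts in all. Annotation and counts are not independent here, since transcript ends are annotated from sequenced RNA. Gene lengths implied by the deposited RPKM also differ from M21 for 12 of the 44 histone genes that have them, among them Hist1h2ac, with 476 bases against 2482, and Hist1h1e, with 749 against 1930. Reads past the stem-loop of those genes may therefore lie outside what was counted.

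**Figure D3:**
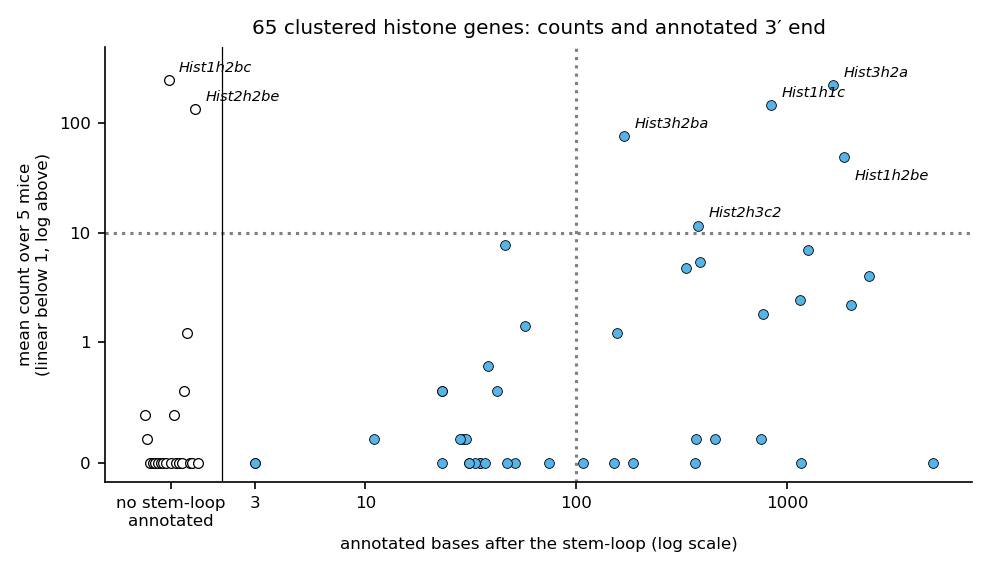
Mean count over 5 mice (linear below 1, log above) of each of the 65 clustered genes against the number of annotated bases after its stem-loop (log scale); open circles at the left have no stem-loop in their annotated transcript. The dotted lines mark a mean count of 10 and 100 bases: 5 of the 22 genes right of 100 bases lie above the count line and 0 of the 22 with fewer bases.

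Where H2B and H2A genes lie head to head, the H2B gene gave most of the counts, which are not corrected for length here. Nearly all of these counts came from the pairs of Hist1h2bc and Hist2h2be. There are 12 such pairs, with starts 176 to 306 bases apart. In 7 the H2B gene had more counts, in 1 the H2A gene, by 3 counts to 1, and in 4 both had 0. Hist1h2bc had 1251 counts in all and Hist1h2ac 11, with 251 bases between their starts. For Hist1h2ac the deposited RPKM imply 476 bases against 2482 annotated, so part of its reads may not have been counted. Hist2h2be had 679 and Hist2h2ac 7, with 239 bases between them. The other 5 pairs with a higher H2B gene held 1 to 6 counts for it and 0 for the H2A gene, too few to compare. Some of these H2A genes are also mostly shared sequence, such as Hist1h2ah, with 92.1% of its 50-base words in another gene.

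The Hist3 cluster on chromosome 11 (chr11:58948920-58956830) was the only one of the 4 with every gene measured, 2 of 2. Of the 52 Hist1 genes in the table (chr13:21715763-23934851) 26 had any count and 3 were measured; of the 10 Hist2 genes (chr3:96219865-96270132) 4 had any count and 2 were measured; Hist4h4 was not measured. The Hist3 promoters are given for that reason, and that of H3f3b because it is the histone gene with the highest RPKM. Each runs from 250 bases before to 50 after the RefSeq start (GRCm38.p6), with the CCAAT string, the TATAAA string and the octamer ATTTGCAT in capitals, in either orientation:
Hist3h2a, chr11:58954435-58954734, plus strand: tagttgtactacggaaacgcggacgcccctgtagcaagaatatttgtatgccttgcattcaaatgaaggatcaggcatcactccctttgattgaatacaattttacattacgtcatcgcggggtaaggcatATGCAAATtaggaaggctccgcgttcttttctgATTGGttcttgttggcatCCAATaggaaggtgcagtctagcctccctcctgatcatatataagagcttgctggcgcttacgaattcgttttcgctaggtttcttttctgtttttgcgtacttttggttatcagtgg
Hist3h2ba, chr11:58948661-58948960, plus strand: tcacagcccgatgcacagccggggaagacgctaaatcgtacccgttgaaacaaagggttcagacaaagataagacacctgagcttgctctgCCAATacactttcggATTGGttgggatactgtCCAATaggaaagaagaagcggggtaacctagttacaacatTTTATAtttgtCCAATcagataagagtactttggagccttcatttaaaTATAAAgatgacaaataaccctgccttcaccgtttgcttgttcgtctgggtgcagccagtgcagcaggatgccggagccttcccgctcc
H3f3b, chr11:116024455-116024754, minus strand: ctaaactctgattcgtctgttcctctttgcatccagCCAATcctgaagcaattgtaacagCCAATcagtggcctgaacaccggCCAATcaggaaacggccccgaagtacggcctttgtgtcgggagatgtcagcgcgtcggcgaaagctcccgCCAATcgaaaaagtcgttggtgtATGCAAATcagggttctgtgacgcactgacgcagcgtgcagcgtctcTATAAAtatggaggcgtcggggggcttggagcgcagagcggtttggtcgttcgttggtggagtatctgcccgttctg

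CCAAT is the site of the factor NF-Y, TATAAA the TATA box, and the octamer the Oct-1 site known from H2B promoters; these searches read both strands and the 3 motifs do not contain one another. A promoter was matched for 74 of the 80 genes, and Hist1h2be has a second one, listed separately. CCAAT occurred in 52 of 61 clustered promoters (85.2%), in 10 of 14 variant promoters (71.4%) and in 37.4% of the 32851 promoters of the RefSeq table. TATAAA occurred in 35 clustered promoters (57.4%), in 1 variant promoter (7.14%) and in 13.6% of all. The octamer occurred in 13 clustered promoters (21.3%), 7 of H2A and 6 of H2B genes, in 1 variant promoter and in 1.74% of all. H3f3b was the 1 variant gene for both TATAAA and the octamer. H4 promoters differed from the other clustered ones in CCAAT, with 3 of 12. Head-to-head H2A and H2B genes have starts 176 to 306 bases apart, and each promoter here reaches 250 bases before the start. Where both genes of such a pair have a promoter, the 2 stretches overlap and 1 string can be counted for both. The 61 clustered promoters are therefore not all separate sequences. A match is a string of letters and not evidence of binding.

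Near-identical copies limit what can be said of the genes at 0. Over 50% of the 50-base words of 34 clustered genes occur in another annotated gene; 22 of these had 0 counts, 1 was measured (Hist2h3c2), and they held 87 counts together. No variant gene was in that range. Hist2h2aa1, Hist2h2aa2, Hist2h2bb, Hist2h3b and Hist2h3c1 have no word of their own and all had 0 counts. How reads that map to several places were treated was not given in the sources used here. Of the 31 clustered genes with more words of their own, 6 were measured, and restricting both classes to genes with under 10% of shared words put the clustered share of summed RPKM at 8.11 ± 1.35% in place of 25.4%. That restriction kept 8 clustered genes, 2 of them measured (Hist1h1c and Hist2h2be), and 9 variant genes, 6 of them measured. It left out Hist1h2bc, with 42.4% of the clustered RPKM, and H2afz, with 18.0% of the variant RPKM. The 8.11% is therefore a share over other genes and not a correction of the 25.4% for copies.

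Variation between mice was next tested for each gene that reached that mean count. edgeR's quasi-likelihood dispersion test with Benjamini-Hochberg adjustment called 0 of 16318 genes variable (0%), and 786 (4.82%) had an unadjusted p under 0.05. DESeq2 marked 49 (0.3%) as dispersion outliers. Both methods compare each gene's spread with a trend fitted to these same genes, so spread that most genes share is not called. A count of 0 therefore does not say that the mice were alike. Of the 17 measured histone genes, 0 were called, with adjusted p from 0.981 to 0.999, and DESeq2 marked 0. H2afx alone had an unadjusted p under 0.05, with 0.0359 in edgeR, and H1fx came next with 0.0591. The coefficient of variation of CPM ran from 9.12% for H2afy to 63.9% for H1fx among the 17 genes, with a median of 22.3%, against a median of 20.5% over all genes tested. Both values depend on mouse 11. Without it the coefficient was 0.874% for H2afy, still the lowest, and 29.4% for H1fx, and Hist1h2be was the highest with 35.6%. The median was then 11.4%, against 14.2% over all genes. That of H2afx was 52.2% with mouse 11 and 4.90% without it.

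Mouse 11 was the highest mouse for most variant genes and for few clustered ones. It had the highest CPM for 9 of 10 variant genes and for 1 of 7 clustered genes, Hist3h2ba, against 33% of all genes tested. Its level was above the other 4 mice by over 0.71 of the whole range for 4 of the 17 genes, H2afx, H2afy, H2afy2 and H2afz, against 6.49% of all genes. The summed variant CPM was 471 in mouse 11 and 335 to 370 in the others, 1.35 times their mean. The summed clustered CPM was 61.7 in mouse 11 and 45.5 to 70.0 in the others, 1.09 times their mean. Without mouse 11 the variant sum was 348 ± 15.7 CPM (SD, n = 4).

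The size of the excess differed between variant genes. The CPM of mouse 11 over the mean of the other 4 was 2.88 for H1fx, 2.52 for H2afx, 1.58 for H2afz, 1.56 for H2afy2, 1.53 for H2afj, 1.33 for H1f0 and for H3f3b, 1.23 for H3f3a and 1.21 for H2afy. H2afv was at 0.838 and was the 1 variant gene that mouse 11 did not lead. The 2 genes with the largest excess are also the variant genes with the highest GC content, H1fx with 71.3% and H2afx with 62.3%; H2afj has 54.6%, H2afy2 54.3%, H1f0 52.1%, H2afy 50.9%, H2afz 48.4% and H2afv 47.2%. To measure how far GC moved with the excess, the trend of each library on GC content and gene length over all genes was removed with a spline. The deviation of H1fx in mouse 11 from its mean over the mice then dropped to 0.04, against 1.29 with the trend, on the log2 CPM scale. That of H2afx dropped to 0.36, against 1.12. The low-GC genes moved the other way: H3f3b (43.4% GC) stood at 0.74 without the trend and 0.39 with it, and H3f3a (43.2% GC) at 0.66 and 0.30. H2afz stood at 0.66 and 0.59 and H2afy at 0.26 and 0.28.

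After the trend was removed, mouse 11 was still the highest for 8 of 10 variant genes, and for 2 of 7 clustered genes, against 30.3% of all genes (37.6% before removal on the same scale). Before removal on that scale, mouse 11 led Hist3h2ba and also Hist1h1c, which stood at 0.29 there and at 0.27 in mouse 10. The median deviation of mouse 11 over the variant genes was 0.27 without the trend and 0.48 with it; over the clustered genes it was 0.14 both ways, and over all genes 0.02 and 0.03. Hist2h3c2, at 60.2% GC, was the lowest clustered gene in mouse 11 after removal, at -0.86, but rests on 11 counts there.

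**Figure D4:**
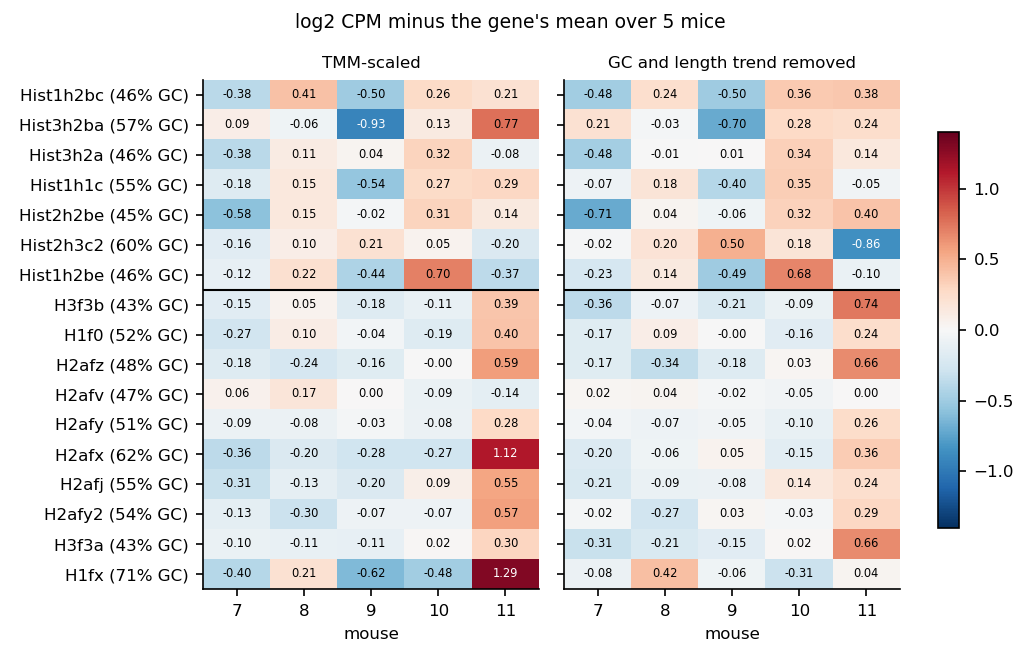
log2 CPM of each measured histone gene minus its mean over the 5 mice, clustered genes above the line and variant genes below it, scaled with TMM (left) and with each library's trend on GC content and length removed (right). In mouse 11, H1fx is at 1.29 on the left and 0.04 on the right, H3f3b at 0.39 and 0.74.

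Clustered genes were mostly highest in other mice. By CPM, 4 of the 7 measured were highest in mouse 10 (Hist1h1c, Hist3h2a, Hist2h2be and Hist1h2be), against 13.3% of all genes tested. Lowest in mouse 9 were 4 (Hist1h1c, Hist1h2bc, Hist3h2ba and Hist1h2be), against 17.3%. The marker lists also differed between mice. Of 13 lists of markers of brain, blood and germ cell types, mouse 11 had the highest summed RPKM in 6 and the lowest in 4. The endothelial list was at 112 RPKM in mouse 11, with 64.3 to 77.8 elsewhere (3 of 5 genes highest, Pecam1 lowest in mouse 11). That of oligodendrocyte precursors was at 83.0 and 47.8 to 56.9 (Olig1 and Cspg4 highest, Pdgfra and Vcan lowest in mouse 11). The choroid plexus list was at 520 and 334 to 429 (3 of 4 genes highest, Prlr lowest). That of B and plasma cells was at 24.7 and 12 to 13.7 (3 of 6 genes highest, 0 lowest). Erythroid cells were at 209 and 64.4 to 185 (3 of 6 genes highest, 0 lowest). The neuronal list, all 8 of its genes measured, summed to 1147 and 1049 to 1144, but its genes moved both ways: 2 of 8 were highest in mouse 11, among them Slc17a7 (520 against 271 to 339), and 4 of 8 lowest, among them Snap25 (227 against 290 to 368). Mouse 11 was lowest for astrocytes, at 526 against 590 to 697 (2 of 6 genes lowest, Aldh1l1 highest). It was also lowest for male germ cells, at 0.721 against 1.30 to 2.50 (2 of 6 genes lowest, 1 highest). The same held for oocytes, at 0 against 0.0318 to 0.178, and for dividing cells, given next. It lay within the range of the others for oligodendrocytes (889, against 699 to 960), microglia (186, against 176 to 204) and cerebellar granule cells (17.0). The list of cerebellar granule cells was at 29.7 RPKM in mouse 10, with 14.0 to 19.2 elsewhere. The part of these cell types, or of regions sampled, in the histone values was not tested.

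Markers of dividing cells had few counts. Their list of dividing cells (Mki67, Top2a, Birc5, Ccnb1 and Cdk1) summed to 0.147 RPKM in mouse 11 against 0.356 to 0.616 elsewhere; none of its 5 genes was at 0 throughout, and 2 were measured. Of 29 genes of S phase and dividing cells, 23 were measured, 0 were called variable by edgeR, 1 (Dcx) had an unadjusted p under 0.05 and 10 were highest in mouse 11, against the 33% of all genes given above. Pcna, the sliding clamp of DNA replication, which also serves repair, led with 13.4 RPKM, followed by Ccne1 with 6.28 and Rrm1 with 4.93. Mki67, a gene of cycling cells, had 0.104 RPKM.

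The machinery that makes, carries and exchanges histones was measured almost throughout. For comparison, 65.7% of protein-coding genes were measured. Of all genes tested, 0% were called by edgeR, 0.3% were marked by DESeq2 and 33% were highest in mouse 11. Of 23 genes of histone transcription and mRNA 3′ end processing, 22 were measured, 0 were called by edgeR and 6 were highest in mouse 11. Cstf2t had 31.8 ± 3.73 RPKM, Cpsf3 24.4 ± 1.69 and Srrt 19.7 ± 1.89; Cstf2t and Cpsf3 encode subunits of the cleavage machinery. Slbp, the stem-loop binding protein, had 3.39 ± 0.567 RPKM, and Npat, the activator of clustered histone genes, 4.50 ± 1.4 (SD, n = 5 each). Of 37 histone chaperones, 35 were measured, 0 were called by edgeR, 1 (Atrx) was marked by DESeq2 and 8 were highest in mouse 11; the NAP1 family members Nap1l5 (212 ± 27.0 RPKM), Tspyl1 (89.1 ± 14.2) and Nap1l2 (53.5 ± 7.42) were the highest (SD, n = 5 each). All 19 genes of H2A.Z exchange were measured, 0 were called by edgeR and 8 were highest in mouse 11, with Kat5 (23.8 ± 3.52 RPKM), Yeats4 (20.3 ± 3.41) and Epc2 (12.7 ± 3.68) the highest (SD, n = 5 each). Cenpa, the histone H3 of centromeres, which lies outside the naming rule, had 0.404 ± 0.208 RPKM (SD, n = 5). Hils1 and H2bfm, also outside it, had 0 counts. Over these lists of histone supply, 4 of the 77 measured genes (Atrx, Casp8ap2, Npm1 and Dek) had an unadjusted p under 0.05 in edgeR, a share near the 4.82% of all genes tested. Without the count filter edgeR called Atrx, Npm1 and Casp8ap2.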

How the data were processed

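Total RNA from the brain of 5 mice was sequenced with 1 library per mouse. The authors deposited gene counts, as whole numbers, and RPKM values for 47729 Ensembl genes. The submitters' processing notes name STAR 2.4.1d, featureCounts 1.4.6-p4, CASAVA 1.7 and GRCm38, with no settings; annotation release and strand setting are not given in the sources used here. The deposited RPKM gave gene lengths within 1% across libraries for 0 of 12729 genes with each library's own total and for all 12729 when totals were taken in turn down the table, so RPKM were recomputed from counts, own totals and the implied lengths.

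The members, gene lists and pairs were chosen with earlier results of these data known. Values per mouse are given for members with mean counts of 100 or more, genes of a pair, and the highest and lowest measured gene of each type; other genes by range and count, and of the other lists any called gene and up to 3 with the highest RPKM. Hist1h2ac, Hist1h4h, Hist2h4 and the list genes Slbp, Npat, Mki67 and Cenpa were added after values were seen. Symbols, coordinates and transcripts come from GENCODE M21 (GRCm38; 47310 genes matched), promoters from RefSeq (GRCm38.p6). Protein sequences were not used here. Variation was tested with edgeR 4.0.16 (quasi-likelihood intercept fit, TMM, mean count 10 or more) against a robust F distribution (limma 3.58.1). DESeq2 1.42.0 served as an alternative, and both ran in R 4.3.3. A check of the edgeR test on simulated data used changes in 1 library larger than the mouse 11 excesses of histone genes, and no GC trend. That check therefore does not cover differences like those of mouse 11. Other statistics used Python 3.11.15 and scipy 1.17.1. Chi-square per gene between libraries was 7.02 to 101, beyond sampling noise, and each was kept as a sample. The edgeR p-values compare a gene's spread between these libraries with the trend over genes. The exact p-values ask whether the genes of a pair differ in level over the mice.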

Additional observations from a re-analysis of the deposited data

Results flagged for a closer look

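Of 25 histone values examined, the measured genes and the class and type sums, 6 had 1 mouse standing apart from the other 4, and in each it was mouse 11, the highest. Chance alone flags about 1 in 20 such values, and the 6 are not independent, since the sums contain the genes. The genes were H2afx with 19.98 CPM in mouse 11, H2afy with 85.2 CPM, H2afy2 with 17.4 CPM and H2afz with 65.2 CPM. The sums were those of variant genes, with 471 CPM in mouse 11, and of H2A genes, with 98.5 RPKM. Over all 16318 genes tested, 6.49% had mouse 11 above the others by this measure, and 12% had any mouse apart. Mouse 11 also has the strongest relation of level to GC content among the libraries.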

How the results depend on the processing

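Of 90 settings of results that answer a comparison, 84 were counted as unchanged and 6 moved. Many of the 84 are counts of genes called variable in settings where 0 of all genes tested were called. A count of 0 in each list was then fixed, so the tally does not measure how firm those results are. Counts, shares and sums were counted as moved when they differed from the main value by more than a fixed ratio, or left 0. Of 148 settings of single genes and pairs, 147 were counted as unchanged. The level of Hist1h2bc moved, to 13.3 RPKM with the annotated exon length. The clustered share of summed RPKM, 25.4%, was 8.11% over the 17 genes with under 10% of shared 50-base words, which leave out Hist1h2bc, and 13.4% in CPM. With no filter on counts, 230 of 28335 genes were called variable, against 0 of 16318, and 0 of 44 histone genes; 3 genes of histone supply were among the 230 (Atrx, Casp8ap2 and Npm1, each highest in mouse 7). DESeq2 marked 49 genes, and Atrx was the 1 supply gene. Leaving out each mouse in turn gave a clustered share of 24.1% to 26.4%, a clustered sum of 54.3 to 60.4 CPM, a variant sum of 348 to 382 CPM, 17 measured genes, 11 to 12 pairs in 1 direction and 0 genes called. No paired analysis between groups of mice was possible because the labels give a single group. Depth limits the 26 clustered genes with a mean count under 10, and the H4 sum, which rests on such genes alone.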
